A study of Mus musculus with 6 samples.

Results

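Basement membranes are thin sheets of matrix under epithelium and around vessels and muscle, and this account describes the genes that build them and bind cells to them in fetal mouse lung with and without Carm1. The members are all array probe sets annotated to exactly 1 gene symbol that is a laminin chain, a numbered integrin alpha or beta subunit, or 1 of 8 linkers and proteoglycans (Nid1, Nid2, Hspg2, Agrn, Col18a1, Col15a1, Dag1 and Npnt). The rule found 82 probe sets of 37 genes among the 45101 probe sets of the array. No measured value entered the rule, and symbols that it does not cover, such as the lettered integrin alpha subunits of leukocytes, are not members.

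The study compared lungs of Carm1 knockout mice with wild-type lungs on Affymetrix 3' expression arrays, which give 1 signal per probe set, with 3 arrays per genotype. The product of Carm1 methylates arginine residues of histones and other proteins and assists transcription factors, nuclear receptors among them. Knockout samples are labelled as lung of embryonic day 18.5 and spell the gene both Carm1 and CRAM1, and wild-type samples carry the label of neonatal lung, whereas the design text states day 18.5 for all. Age and genotype therefore cannot be told apart from the sample labels alone. Neither genotype carries a further allele or treatment in the labels, and strain, litter and the construction of the knockout allele were not in the labels used here. The labels do not say that the samples came from separate fetuses, so p-values below cover the spread among these 6 samples, which may be in part technical. Sex signals, given below, differed within each genotype, so the 3 arrays of a genotype did not all come from 1 fetus. The small number of arrays limits the precision.

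A laminin is a trimer of 1 alpha, 1 beta and 1 gamma chain that polymerises on the cell surface into the first sheet of a basement membrane. Nidogens and the heparan sulfate proteoglycans perlecan and agrin tie that sheet to the type IV collagen network, and collagens XV and XVIII lie at its border with the underlying matrix. Cells hold on to it through integrins, which are pairs of an alpha and a beta subunit that span the membrane, and through dystroglycan. In lung the alveolar epithelium and the capillary share a fused basement membrane across which gas passes, and nephronectin is a ligand of the integrin made of alpha 8 and beta 1.

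The targeted gene was lower in the samples labelled knockout. Signals of Carm1 were 814, 678 and 865 on wild-type replicates 1 to 3 and 395, 374 and 511 on knockout replicates 1 to 3, with no overlap (log2 difference -0.89, SE 0.16, adjusted p = 0.105 by limma). Its only probe set may cross-hybridise, and its place relative to the deleted part is not known here. The tissue label was borne out by its markers, since all 9 measured genes of the alveolar type II list and all 10 of the type I list gave signal above the filter. Bacterial control RNA, which is added before labelling, was present on wild-type replicates 1 and 3 and absent on the other 4 arrays, and wild-type replicate 3 and knockout replicate 2 had the Xist and Y-linked signals of males. Values from the 4 arrays without bacterial control RNA (1 wild type against 3 knockouts) are given beside several results.

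Genes of basement membrane adhesion were mostly lower in knockout lung by small amounts, and none passed the adjusted threshold. Among the 65 member probe sets bright enough to be tested, which stand for 33 genes, 47 were lower and 18 higher in knockout, and the median log2 difference was -0.15, where all 27022 probe sets tested had a median of 0.019 and 47.3% of them were lower. In a bulk sample fewer cells of a type and less RNA per cell cannot be told apart. With limma 0 of 65 had a Benjamini-Hochberg adjusted p under 0.05, where 0.0296% of all probe sets tested did, and the smallest adjusted p among members was 0.0922, at an Itga3 probe set whose knockout signals were dim. At an unadjusted p under 0.05 there were 17, or 26.2%, against a background of 13.6%. Of these 14 were lower (background 6.31%) and 3 higher (background 7.32%). The groups did not overlap in 14 member probe sets, 21.5% of those tested, which is near the background of 20%. Of those 14, knockout lay below wild type in 11 (background 9.36%) and above it in 3 (background 10.7%). The 17, the 14 lower and the 11 below include the Itga3 probe set of smallest adjusted p, which was tested only through its wild-type signals. The 47 lower also include dim probe sets of Lamc3 and Itga4, and the 18 higher those of Itga5 and Itgb7, that passed the filter only through the brighter group. Without knockout replicate 3 the count at an unadjusted p under 0.05 was 8 (background 8.97%), and on the 4 arrays without bacterial control RNA it was 7 (background 7.75%), while the median stayed at -0.12 and -0.14.

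**Figure D1:**
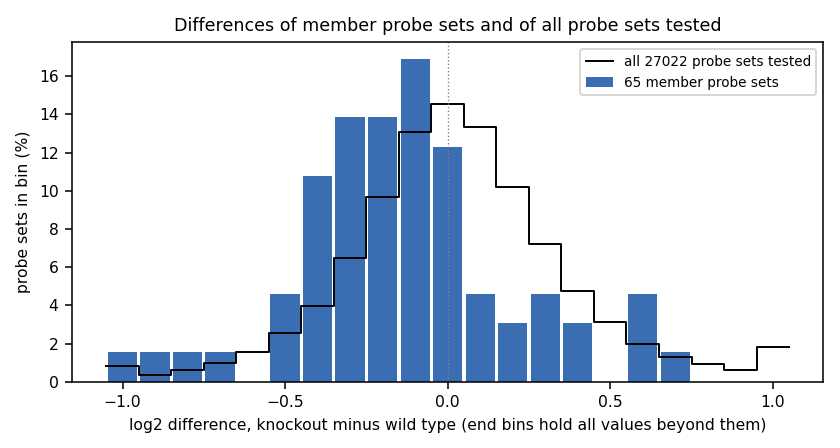
Distribution of log2 differences (x axis, knockout minus wild type) in percent of probe sets per bin of 0.1 (y axis), for the 65 member probe sets tested (bars) and all 27022 probe sets tested (black line). The members' bars sit mostly left of 0, with a median of -0.15 against 0.019.

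Counted as 1 probe set per gene, the brightest, 24 of 33 genes were lower and 9 higher. At an unadjusted p under 0.05 there were 11 genes, 9 lower (background 7.36% over 1 probe set per gene) and 2 higher (background 9.14%). Groups did not overlap in 9 genes (background 23.1%), 7 with knockout below (background 10.5%) and 2 with knockout above (background 12.6%). The 9 genes that were lower genes were the laminin alpha chains Lama3 and Lama5, the integrin subunits Itga1, Itga3, Itgb1 and Itgb6, the receptor Dag1, the integrin ligand Npnt and the proteoglycan Agrn. The 2 higher were Col15a1 and Col18a1, which make the collagens that carry the restin and endostatin fragments.

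**Figure D2:**
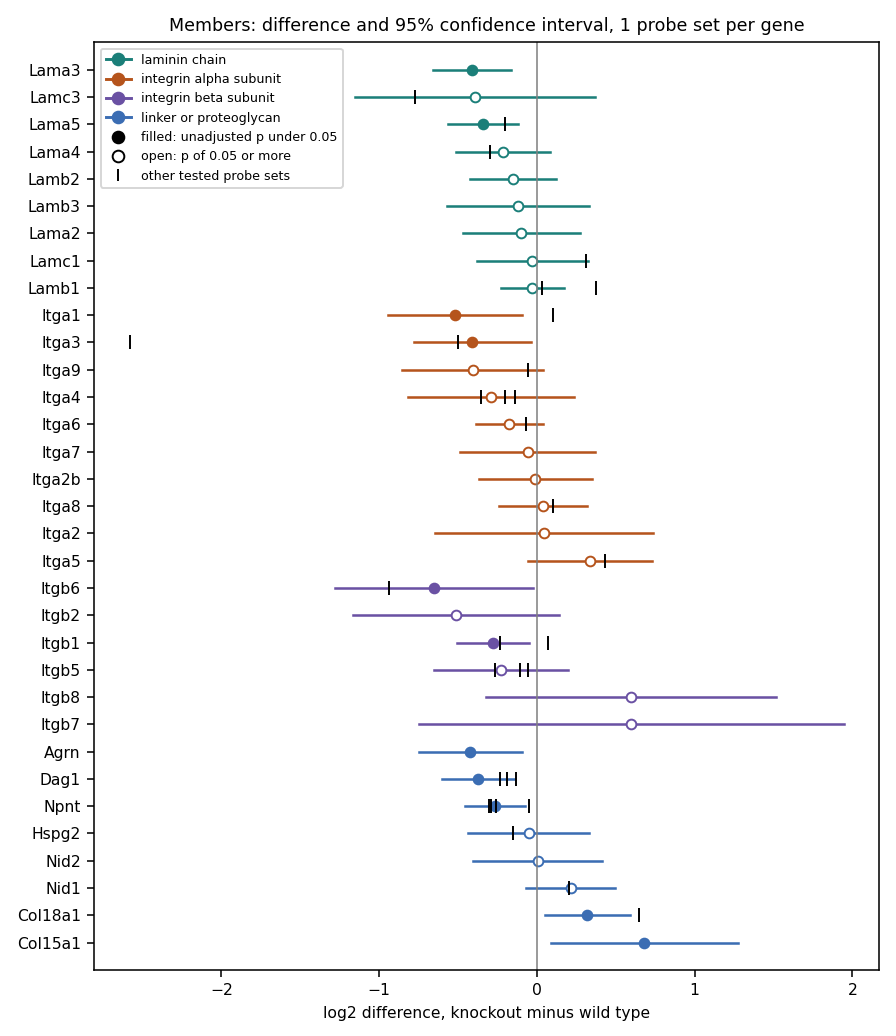
Log2 difference with its 95% confidence interval (x axis) for the brightest tested probe set of each of the 33 member genes (y axis), coloured by class. Filled points have an unadjusted p under 0.05 and black ticks are other tested probe sets of the gene; all 9 laminin genes lie left of 0, and the lone tick near -2.58 is a probe set of Itga3 with knockout signals under the filter level.

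Start-site windows are shown for the gene of smallest p without overlap at its brightest probe set in each class, and for the leading higher gene, among genes with a window in the promoter table, which leaves out Lama3, so that lower genes of each class can be set beside a higher one. Each window runs from 250 bases before to 50 bases after a start site in the RefSeq promoter table of build GRCm38.p6, 5′ to 3′ on the strand of the gene, and the window farthest upstream is taken where a gene has 2. Capitals mark matches, on either strand, of GGGCGG (the GC box bound by Sp1), AGGTCA (a core element of nuclear receptors), AGAACA (a core element of the glucocorticoid receptor) or TGACTCA (an AP-1 site). Matches of 1 motif may overlap those of another, and none of the 4 is its own reverse complement.
Dag1, chr9:108263909-108264208, minus strand: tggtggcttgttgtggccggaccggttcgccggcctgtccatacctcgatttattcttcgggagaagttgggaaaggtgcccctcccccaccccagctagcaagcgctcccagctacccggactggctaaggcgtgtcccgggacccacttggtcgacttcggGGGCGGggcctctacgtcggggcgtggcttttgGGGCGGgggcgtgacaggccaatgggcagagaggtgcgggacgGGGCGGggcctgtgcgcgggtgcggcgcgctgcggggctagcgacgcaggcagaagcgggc
Lama5, chr2:180225810-180226109, minus strand: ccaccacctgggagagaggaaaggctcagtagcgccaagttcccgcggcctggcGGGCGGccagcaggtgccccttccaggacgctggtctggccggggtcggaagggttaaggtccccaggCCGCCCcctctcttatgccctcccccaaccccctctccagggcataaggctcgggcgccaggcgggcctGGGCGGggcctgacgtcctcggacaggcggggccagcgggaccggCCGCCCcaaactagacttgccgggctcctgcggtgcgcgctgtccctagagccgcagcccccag
Itga1, chr13:115101915-115102214, minus strand: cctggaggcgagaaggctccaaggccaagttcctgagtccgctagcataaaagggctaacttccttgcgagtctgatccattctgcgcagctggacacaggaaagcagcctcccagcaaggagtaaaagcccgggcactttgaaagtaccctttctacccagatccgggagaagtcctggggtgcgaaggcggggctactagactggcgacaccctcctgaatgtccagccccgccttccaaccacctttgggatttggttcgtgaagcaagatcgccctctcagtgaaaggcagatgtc
Itgb1, chr8:128685404-128685703, plus strand: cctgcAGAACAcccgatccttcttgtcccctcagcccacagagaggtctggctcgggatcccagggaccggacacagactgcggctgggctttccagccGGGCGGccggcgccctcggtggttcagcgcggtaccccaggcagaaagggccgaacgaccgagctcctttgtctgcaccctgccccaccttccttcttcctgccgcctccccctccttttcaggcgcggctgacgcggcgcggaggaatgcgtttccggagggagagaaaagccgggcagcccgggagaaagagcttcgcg
Col18a1, chr10:77166481-77166780, minus strand: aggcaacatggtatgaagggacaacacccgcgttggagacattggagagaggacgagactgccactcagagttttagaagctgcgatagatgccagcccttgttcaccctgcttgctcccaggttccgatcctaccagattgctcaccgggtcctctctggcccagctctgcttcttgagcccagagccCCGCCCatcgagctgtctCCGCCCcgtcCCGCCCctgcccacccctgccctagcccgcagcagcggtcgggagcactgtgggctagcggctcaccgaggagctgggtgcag

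The GC box letters occurred 3 times in the window of Dag1, 4 times in that of Lama5, 1 time in that of Itgb1, 3 times in that of Col18a1 and 0 times in that of Itga1. The letters were thus present beside lower and higher genes alike. The element AGAACA had 1 match, in Itgb1, and AGGTCA and TGACTCA had 0 in these 5 windows. The promoter table held 25 of the 33 tested member genes, in 32 windows. Of these windows 56.2% held GGGCGG, where 35.7% of all 32851 windows did, and the median GC content was 60.2% against 52.7%. AGGTCA was in 3.12% of member windows and 16.3% of all, AGAACA in 15.6% and 19.0%, and TGACTCA in 3.12% and 5.20%. A match describes letters in a window and not a bound site.

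Laminin chains were lower in knockout at the brightest probe set of all 9 genes tested. Their 15 tested probe sets, of 19 on the array, had a median log2 difference of -0.15, with 12 lower and 3 higher. The 12 include a dim Lamc3 probe set that was tested only through its wild-type signals. At an unadjusted p under 0.05 there were 2, or 13.3%, near the background of 13.6%. Both of those were alpha chains of epithelial laminins, whose long C-terminal domains bind integrins and dystroglycan. Lama3, the alpha chain of laminin 332 that anchors epithelium to its base, gave signals of 2285, 2096 and 2502 in wild-type replicates 1 to 3 and 1803, 1799 and 1568 in knockout replicates 1 to 3. Every knockout array was thus below every wild-type array. The knockout level was 75.2% of wild type (log2 -0.41, SE 0.11, 95% interval -0.66 to -0.16, adjusted p = 0.182), and without wild-type replicates 1 and 3, the arrays with bacterial control RNA, the difference was -0.29.

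Lama5, the alpha chain of laminins 511 and 521 of the alveolar and vascular basement membrane, was at 1714, 1854 and 1725 in wild type and 1446, 1433 and 1302 in knockout. The groups were again apart, and the knockout level was 79% of wild type (log2 -0.34, SE 0.10, adjusted p = 0.208). The second tested probe set of Lama5, which may cross-hybridise, read 886, 927 and 984 in wild type against 624, 1004 and 844 in knockout, with knockout replicate 2 above all wild types, and differed by -0.20. The endothelial and mesenchymal chain Lama4 read 2709.6, 3561 and 3701 in wild type and 3055, 2731 and 2735 in knockout at its brighter probe set, where wild-type replicate 1 was the lowest of all 6 arrays. Its difference was -0.22 (95% interval -0.51 to 0.082) and that of the other probe set -0.30. Lama2, the chain of muscle and mesenchyme, differed by -0.10.

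For the beta and gamma chains that pair with these alpha chains, the groups overlapped at the brightest probe set of every gene. Lamb1, shared by most laminins of the fetal lung, was at 4746, 5235 and 5069 in wild type and 4784, 4819 and 5160.2 in knockout, so that the groups were interleaved (log2 -0.028, 95% interval -0.23 to 0.17, and -0.090 on the 4 arrays without bacterial control RNA). Its further probe sets differed by 0.38 and 0.035. The common gamma chain Lamc1 was at 1846, 2698 and 2590.2 in wild type against 2066, 2531 and 2329.7 in knockout, with both the lowest and the highest array in wild type (log2 -0.028, 95% interval -0.38 to 0.32, and -0.23 on those 4 arrays), and its dimmer probe set differed by 0.31. Lamb2, the beta chain of laminins 421 and 521, read 724, 730.3 and 657 in wild type against 595, 625 and 683 in knockout (log2 -0.15, 95% interval -0.43 to 0.12).

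Lamb3, the partner of Lama3 in laminin 332, read 1486, 865 and 1076 in wild type and 1089, 1143 and 866 in knockout. Wild-type replicate 1 was far above the others and wild-type replicate 2 was the lowest of the 6, and the difference of -0.12 became 0.088 without wild-type replicate 1 and 0.25 on the 4 arrays without bacterial control RNA. The dim chain Lamc3 had 2 tested probe sets, at -0.39 and -0.77, neither at an unadjusted p under 0.05. Lama1, the chain of early embryonic laminin, had signals from 5.29 to 83.5 and was not tested.

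**Figure D3:**
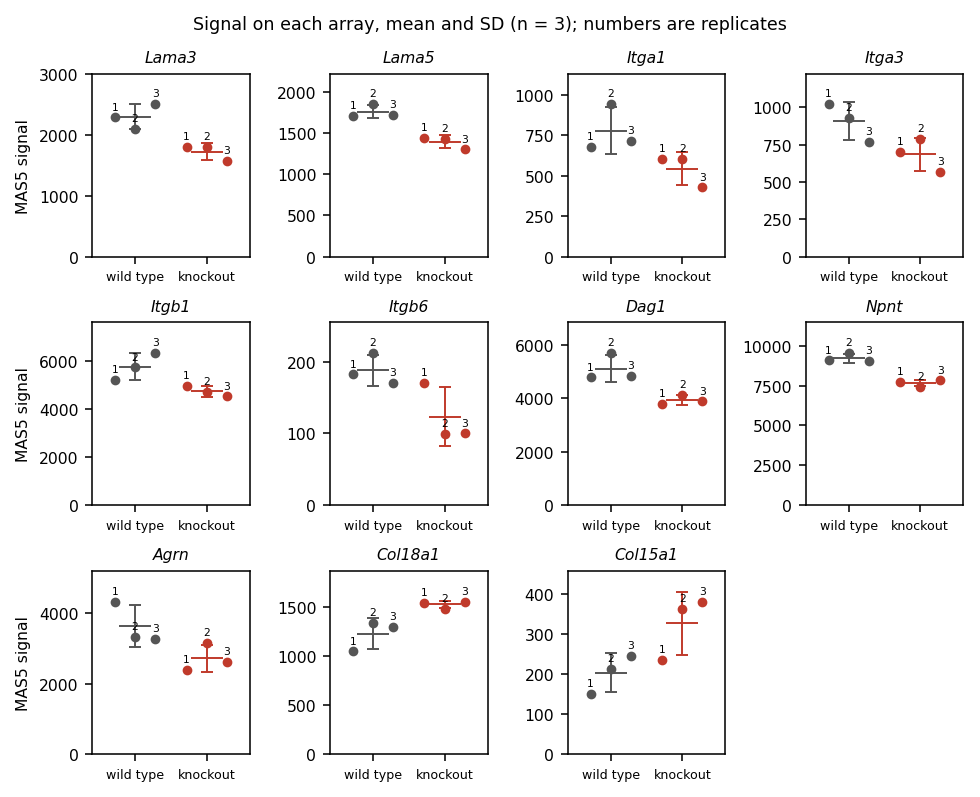
MAS5 signal on each array (y axis, linear, from 0) for the 11 member genes at an unadjusted p under 0.05 by limma, at their brightest probe set; points are single arrays numbered by replicate, and bars give the mean and SD over 3 arrays. In Lama3, Lama5, Itga1, Itgb1, Dag1, Npnt and Agrn all knockout points lie below all wild-type points, in Col18a1 all lie above, and in Itga3, Itgb6 and Col15a1 the groups overlap.

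Among integrin alpha subunits, 7 of 10 tested genes were lower, with Itga1 and Itga3 at an unadjusted p under 0.05. The class had 20 tested probe sets of 25, with a median of -0.10. The 3 at an unadjusted p under 0.05 were all lower, and 15% is near the background of 13.6%. They include the dimmest Itga3 probe set, which was tested only through its wild-type signals. Itga1, whose protein pairs with beta 1 to bind collagen IV, was at 677, 942 and 716 in wild type and 602, 604 and 427 in knockout. The groups were apart, with knockout replicate 3 lowest (log2 -0.52, SE 0.19, adjusted p = 0.285). The difference was -0.81 on the 4 arrays without bacterial control RNA. A second probe set of Itga1 was dimmer, at 109.6, 221 and 299 in wild type against 296, 198 and 153 in knockout, and had the opposite sign (0.10).

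Itga3, whose protein with beta 1 is the main receptor of epithelial cells for laminins 332 and 511, was lower at all 3 of its tested probe sets. The brightest gave 1022, 929 and 769.5 in wild type and 699.7, 791 and 566 in knockout, where knockout replicate 2 lay just above wild-type replicate 3 (log2 -0.41, SE 0.16, adjusted p = 0.325). The second gave 252, 226 and 274 in wild type against 244, 144 and 158 in knockout (log2 -0.50). The dimmest, which may cross-hybridise, gave 195, 199.9 and 159 in wild type and 36.3, 46.3 and 17.3 in knockout. All 3 knockout signals there were under 59.7, the mean signal that a probe set had to exceed to be tested, so that it was tested only through its wild-type signals. Its fitted log2 difference of -2.58 (SE 0.42, adjusted p = 0.0922, and 0.0491 with robust variance) is therefore no measure of size and supports no call. Whether the 3 probe sets of Itga3 differ from each other was not tested.

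For Itga6, Itga9, Itga8, Itga7 and Itga2 the groups overlapped at the brightest probe set. Itga6, which pairs with beta 1 or beta 4 as a laminin receptor, was at 3709, 4278 and 4257 in wild type and 3549, 3716 and 3572 in knockout. Knockout replicate 2 lay just above the lowest wild type, and the difference was -0.17 (95% interval -0.39 to 0.040). Itga9, a receptor of tenascin and other matrix ligands, gave 891, 1119 and 925 in wild type against 976, 719 and 565 in knockout, lowest on knockout replicate 3 (log2 -0.41, 95% interval -0.85 to 0.040). Itga8, the mesenchymal receptor of nephronectin, was at 4883, 3988 and 4559 in wild type against 4578, 5214 and 4025 in knockout, with the groups interleaved and no settled direction, since its difference of 0.038 (95% interval -0.24 to 0.32) turned negative when arrays were centred on their medians and was 0.20 on the 4 arrays without bacterial control RNA. Itga7, a laminin receptor of muscle, differed by -0.058 and the collagen receptor Itga2 by 0.047.

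The fibronectin receptor went the other way without passing. Itga5 gave 300.1, 287 and 297 in wild type and 455, 336 and 338 in knockout, with all knockout arrays above all wild types (log2 0.34, SE 0.17, adjusted p = 0.436), and its second tested probe set differed by 0.43. Itga4, of leukocytes and mesenchyme, was lower at all 4 tested probe sets, from -0.36 to -0.14, with none at an unadjusted p under 0.05. The -0.36 was at the dimmest, which had a knockout mean of 58.4 and was tested only through its wild-type signals. Itga2b, the platelet subunit, was at 358, 371 and 366 in wild type and 307, 391 and 397 in knockout, a difference of -0.0090 (95% interval -0.37 to 0.35), and Itga10 was too dim to be tested.

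The alpha subunits stood out by array. Knockout replicate 3 was the lowest of the 6 arrays in 10 of their 20 tested probe sets, or 50%, against 20.6% of all probe sets tested, and in 21 of the 65 member probe sets. Both counts include the Itga3 and Itga4 probe sets that were tested only through their wild-type signals. Medians of their deviations from the wild-type mean were 0.074, -0.16 and -0.42 on knockout replicates 1 to 3. Without knockout replicate 3 the class median was -0.046, and without knockout replicate 1 it was -0.26. It was -0.21 without wild-type replicate 1, so that single arrays move this class median by over 1.5 times.

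Beta subunits were lower in 4 of 6 tested genes, among them the partner that most matrix integrins share. Their 12 tested probe sets, of 18 on the array, had a median of -0.23, and 4 were lower at an unadjusted p under 0.05 (background 6.31%) with 0 higher. Without wild-type replicate 1 the class median was -0.14. Itgb1, the beta subunit common to receptors of laminin, collagen and fibronectin, was at 5213, 5735 and 6338 in wild type and 4976, 4717 and 4524 in knockout. No knockout array reached a wild-type one, and the knockout level was 82.4% of wild type (log2 -0.28, SE 0.10, adjusted p = 0.288). The next probe set gave 4144, 3284 and 3825 in wild type against 3349, 3394 and 2824 in knockout with overlap (log2 -0.23), and a dim one that may cross-hybridise differed by 0.070. The other 3 probe sets of Itgb1 were not bright enough to be tested.

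Itgb6, the epithelial partner of alpha v that activates transforming growth factor beta, was lower at both of its probe sets. The brighter gave 182, 212 and 170.1 in wild type and 171, 99.2 and 100.1 in knockout, where knockout replicate 1 was level with the wild types and the other knockouts were well below them (log2 -0.65, SE 0.28, adjusted p = 0.35). The other gave 112, 169 and 229.8 in wild type against 90.8, 98.0 and 69.5 in knockout, with the groups apart (log2 -0.94, SE 0.32, adjusted p = 0.271). Itgb5, another partner of alpha v, was lower at 4 of 4 probe sets, from -0.27 to -0.058, and 1 of them, which may cross-hybridise, had an unadjusted p under 0.05 and no overlap (1162, 1039.6 and 979.6 against 865, 900.4 and 872).

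Itgb2, of leukocytes, read 672, 585 and 534 in wild type and 616, 461 and 254 in knockout, with knockout replicate 3 far below the others (log2 -0.51, 95% interval -1.16 to 0.14). Dim signals of Itgb7 and Itgb8, an integrin subunit of lymphoid and mast cells and a further partner of alpha v, differed by 0.60 and 0.60 with wide intervals (-0.74 to 1.94 and -0.32 to 1.52). Itgb7 read 18.7, 71.2 and 93.7 in wild type and 85.4, 60.1 and 84.6 in knockout. Its mean log2 value in wild type was under the filter level, so it was tested only through its knockout signals and supports no direction. Itgb3 and Itgb4 were not tested. Itgb4, which anchors the hemidesmosome, had signals of 76.2, 43.8 and 22.7 in wild type and 40.1, 79.7 and 71.7 in knockout at its only probe set, so this array does not measure it well here.

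Among linkers and proteoglycans, Dag1, Npnt and Agrn were lower and the border collagens higher. Of 18 tested probe sets, of 20 on the array, 12 were lower and 6 higher with a median of -0.14. Npnt and Dag1 supplied 5 and 4 of the lower ones. Counted as 1 probe set per gene, 4 of 8 genes were lower and 4 higher, with a median of -0.023. Of the 18 probe sets, 8 had an unadjusted p under 0.05 (background 13.6%), 5 lower (background 6.31%) and 3 higher (background 7.32%). The class median was -0.065 on the 4 arrays without bacterial control RNA. Dag1, whose product dystroglycan binds laminin through its sugar chains, gave 4781, 5693 and 4829.7 in wild type and 3779.8, 4121 and 3880.3 in knockout. The groups were well apart (log2 -0.37, SE 0.10, 95% interval -0.60 to -0.15, adjusted p = 0.183). All 4 probe sets of Dag1 were lower, the other 3 by -0.19, -0.23 and -0.13 with overlap.

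Npnt, which encodes nephronectin, was lower at every probe set. Its brightest probe set gave 9087, 9551 and 9031 in wild type and 7744, 7442 and 7823 in knockout, tight within each group and without overlap (log2 -0.27, SE 0.083, adjusted p = 0.237). The knockout level was 83.2% of wild type. Of its 5 probe sets 3 had an unadjusted p under 0.05, and the differences were -0.26 at the second, -0.31 at the third, -0.29 at the fourth and -0.048 at the dimmest. Set beside its receptor, Npnt was lower on every knockout array while Itga8 was not, and the difference between these genes was not tested.

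Agrn, the proteoglycan agrin that binds laminin and dystroglycan, was at 4331, 3333 and 3274 in wild type and 2383, 3153 and 2614 in knockout. Wild-type replicate 1 was the highest by far and the groups did not overlap (log2 -0.42, SE 0.14, adjusted p = 0.268), and the difference was -0.29 without that array. Hspg2, which encodes perlecan, gave 685, 610.0 and 584 in wild type against 474, 700.1 and 661 in knockout, interleaved, with differences of -0.051 and -0.15 at its 2 probe sets, the first of which was -0.016 on the 4 arrays without bacterial control RNA.

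The 2 collagens of the border zone were higher in knockout. Col18a1, the precursor of endostatin, gave 1045, 1336 and 1296 in wild type and 1537, 1479 and 1551 in knockout at its brighter probe set, all knockouts above all wild types (log2 0.32, SE 0.12, adjusted p = 0.298). That difference became 0.19 on the 4 arrays without bacterial control RNA and 0.21 after leaving out wild-type replicate 1. The second probe set, which may cross-hybridise, gave 669, 846 and 879 in wild type against 1362, 1143 and 1232 in knockout, wider apart (log2 0.65, SE 0.14, adjusted p = 0.134). Col15a1 gave 150.0, 214 and 246 in wild type and 235, 364 and 381 in knockout, where knockout replicate 1 lay inside the wild-type range (log2 0.68, SE 0.26, adjusted p = 0.306).

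Both nidogens, which bridge laminin and collagen IV, lay near or above the wild-type level. Nid1 read 3681, 4299 and 5112 in wild type and 5244, 4899 and 4922 in knockout, with wild-type replicate 3 inside the knockout range (log2 0.21, 95% interval -0.066 to 0.50, but 0.099 when wild-type replicate 1 was left out and 0.34 when replicate 3 of that group was), and its second probe set differed by 0.21. Nid2 read 631, 844 and 1017 in wild type against 845, 725 and 895 in knockout and had no settled direction, since its difference of 0.0056 (95% interval -0.40 to 0.41) turned to -0.0097 after quantile normalization and to -0.054 after median centring.

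Probe sets of 1 gene gave a partial check within the array. Of the 20 member genes with 2 or more tested probe sets, 12 were lower at every one and 4 higher at every one (Itga5, Itga8, Col18a1 and Nid1). Dim probe sets of Itga3, Lamc3 and Itga4 among the 12, and of Itga5 among the 4, were tested only through the brighter group. Their direction is therefore no independent check. Mixed signs occurred in 4, namely Lamb1, Lamc1, Itga1 and Itgb1. The 17 member probe sets below the filter had signals from 0.860 to 112 and in 0 of them were the groups apart. Permutation of the 6 arrays, exact and two-sided, gave p = 0.1 wherever the groups were apart, and 3 against 3 can go no lower.

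Genes that work with the members were examined in 3 lists, 1 probe set per gene. The first list held adaptors that link integrins to actin and signalling and other adhesion genes, such as Cav1, Cd9, Cd81, Cd151 and Col17a1. Of its 29 measured genes 25 were lower and 4 higher, with a median of -0.11 (0.029 over all genes, of which 45.4% were lower). At an unadjusted p under 0.05 there were 8 lower (background 7.36%) and 0 higher, and 0 passed the adjusted threshold. The leading gene was Lims2, which encodes the adaptor PINCH2 that binds integrin-linked kinase, at 1257, 828 and 798 in wild type and 370.1, 461 and 373 in knockout (log2 -1.24, SE 0.19, adjusted p = 0.0909). Every knockout array of Lims2 was far below every wild type. Tns1, which encodes the adhesion protein tensin 1, gave 5456, 5323 and 4845 in wild type against 3294, 3711 and 3218 in knockout (log2 -0.61, adjusted p = 0.0909). Cav1, the caveolin of type I cells and endothelium, gave 33036, 32683 and 28984 in wild type and 21286, 24427 and 22345 in knockout, without overlap (log2 -0.48, adjusted p = 0.135).

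Among other basement membrane and ligand genes, chains of type IV collagen had the smallest p. Of 28 measured, 17 were lower and 11 higher (45.4% of all genes were lower), with a median of -0.17. At an unadjusted p under 0.05 there were 9 lower (background 7.36%) and 0 higher (background 9.14%). The type IV collagen chains Col4a3 (1030.3, 675 and 803 against 302, 321 and 192) and Col4a4 (3874, 3412 and 3662 against 1628, 1626 and 985), which form 1 network with Col4a5, differed by -1.64 and -1.40, each with an adjusted p of 0.0852, and Col4a2 (7209, 6654 and 6878 against 4759, 5082 and 4889.5) by -0.49. The differences of Col4a3 and Col4a4 exceed in size those of all laminin probe sets tested, although the gaps between them were not tested.

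Genes that attach sugars to dystroglycan or join its complex showed no lean. Of 15 measured, 8 were lower and 7 higher with a median of -0.017, and 2 had an unadjusted p under 0.05, near the background of 16.5%. They were Dtna, which encodes a dystrobrevin of the complex (513, 532 and 558 against 337, 419 and 378, log2 -0.50, adjusted p = 0.2), and the glycan kinase Pomk (219, 257 and 323 against 396, 341 and 337, log2 0.44, adjusted p = 0.357). Next was Utrn, encoding utrophin, at 1805, 1877 and 1894 in wild type and 1600.0, 1769 and 1490.4 in knockout, with the groups apart (log2 -0.20).

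**Figure D4:**
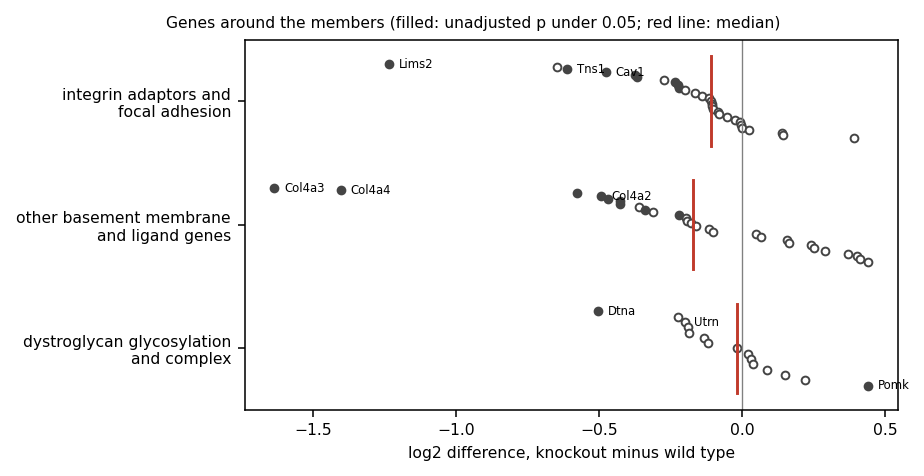
Log2 difference (x axis) of each measured gene in 3 lists of genes around the members (y axis), 1 probe set per gene; filled points have an unadjusted p under 0.05 by limma, red lines are medians, and the 3 genes of smallest p are named. Medians are -0.11 for integrin adaptors and other adhesion genes, -0.17 for other basement membrane genes and -0.017 for the dystroglycan list.

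Markers of the cells that make and bind these proteins differed between the groups too. All 10 type I cell markers, the cells that lay down much of the alveolar basement membrane, were lower, 8 of them without overlap (background 10.5%). Their summed signal ran from 92911 to 129738 in wild type and from 58170.0 to 78984 in knockout. Endothelial markers were lower in 9 of 11, 7 without overlap (background 10.5%), with summed signals of 27872 to 31751 against 23049.6 to 25205. Type II markers were lower in 7 of 9, 4 without overlap (background 10.5%), with sums of 151506 to 190267 against 136701 to 159668. None of these markers was at 0 on any array. Their part in the differences of Lama3, Lama5, Itga3, Itgb6, Npnt, Agrn and Dag1 was not tested.

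Smooth muscle markers leaned higher. Of 10 smooth muscle and pericyte markers 8 were higher, 3 without overlap (background 12.6%). Their summed signal ran from 16049 to 16938 in wild type and from 17140.1 to 19935 in knockout. Fibroblast markers were higher in 5 of 9, near the share of all genes, with sums that overlapped. At an unadjusted p under 0.05 by limma 4 of these were higher (background 9.14%) and 1 lower (background 7.36%). Without overlap, knockout lay above wild type in 3 (background 12.6%) and below in 1 (background 10.5%). The largest differences were 2.42 for Lum and 1.39 for Dcn. Leukocyte and macrophage markers were lower in 6 of 10, and their sum on knockout replicate 3, 24269, was below the 34152 and 36123 of the other knockouts and the wild-type range of 35193 to 48622. Most of that gap was Lyz2, at 14293 on knockout replicate 3 and from 21899 to 37259 on the other arrays. Neutrophil markers were higher in 7 of 7, with sums of 6589 to 20855 against 12015 to 48128. Knockout replicate 3 was also the lowest array for Itgb2 and for the brightest probe set of Itga4, and the part of leukocyte and neutrophil markers there was not tested. Platelet markers were lower in 6 of 7 with overlapping sums (3269 to 3806 against 3191 to 3787), beside the difference of -0.0090 at Itga2b. Mast cell and basophil markers were higher in 7 of 8 tested, with sums from 3983 to 4796 in wild type and from 5777 to 10560.4 in knockout. The 7 include Mcpt8 (34.3, 21.2 and 27.4 in wild type against 181, 123 and 147 in knockout), which was tested only through its knockout signals. The dim Itgb7 was tested only through its knockout signals too, and the part of mast cell markers in it was not tested. Airway epithelial markers were higher in 6 of 7, with sums of 75977 to 114022 against 87611 to 97876. The 6 include the dim Krt5, which was tested only through its knockout signals. Mesothelial markers were lower in 6 of 7, and proliferation markers were higher in 5 of 5. Skeletal and cardiac muscle markers were higher in 6 of 7, with sums of 4035 to 15696 against 11422 to 38599, the last on knockout replicate 3, where Acta1 was 13629 against 182 to 1501 on the other arrays. Erythroid markers were higher in 3 of 4, with sums of 8595 to 15500.4 against 10653 to 20553. The part of these in the members' differences was not tested.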

How the data were processed

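The deposited values are linear intensity per probe set, 1 column for each of 6 arrays. The submitters' processing notes name MAS5 without a version. In the deposited values the mean after trimming 2% at each end was 500 on all 6 arrays. Log2 was taken with no pseudocount and no further scaling. Symbols came from the platform annotation, updated through gene IDs (RefSeq, GRCm38.p6), and 34958 probe sets had 1 symbol, 932 several and 9211 none. Among non-control probe sets, those whose mean log2 value exceeded the 40th percentile (signal 59.7) were tested, 27022 in all. limma 3.58.1 (R 4.3.3; lmFit, eBayes with intensity trend, two-sided) gave knockout minus wild type, with Benjamini-Hochberg adjustment over all probe sets tested and a threshold of 0.05. The fit was tested on simulated data. A gene stands for its tested probe set of highest mean. Probe sets ending in _x_at or _s_at may cross-hybridise. Per-array values are given for genes at an unadjusted p under 0.05 and for a set of laminin, receptor and linker genes named irrespective of value, plus the 3 of smallest p per pathway list. Values of other members are given to account for them. The members and lists were chosen with earlier results of these data known.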

Additional observations from a re-analysis of the deposited data

How the results depend on the processing

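The median difference of the members stayed negative in every alternative, from -0.21 after centring arrays on their medians to -0.12 without knockout replicate 3, and was -0.15 with 1 probe set per gene. The count past the adjusted threshold was 0 in all alternatives except robust variance, where it was 1, the Itga3 probe set tested only through its wild-type signals; at an unadjusted p under 0.05 the same limma fit had 17. That count was 6 with bacterial control RNA as a term (background 7.43%), 7 on the 4 arrays without it, and from 8 to 16 when 1 array was left out. With the replicate number as a block it was 14, and 0 passed the adjusted threshold; deviations of same-numbered samples correlated at -0.14, -0.38 and -0.0056. Of the named genes, 6 near 0 turned sign. Lamb3 was 0.25 with bacterial control RNA as a term or on the 4 arrays without it, and Nid2 was -0.045 in both. Nid2 was -0.0097 after quantile normalization and -0.054 after median centring, which made Itga8 -0.021. Leaving out single arrays, the ranges were -0.16 to 0.12 for Hspg2, -0.056 to 0.13 for Itga8, -0.067 to 0.0038 for Lamb1, -0.30 to 0.088 for Lamb3, -0.20 to 0.073 for Lamc1 and -0.18 to 0.17 for Nid2. The cause was not tested. Of the 11 genes at an unadjusted p under 0.05, each kept its direction in all alternatives run, and Lama5, Dag1 and Npnt stayed at an unadjusted p under 0.05 in all 18. The other genes of the 11 did not, bright ones such as Itgb1 and Agrn among them, and the reason was not tested. The number of arrays limits the precision. The fitted difference of a probe set cannot change with the filters, the variance settings, the replicate block or the sex term. Those alternatives therefore do not test its direction. Bacterial control RNA as a term and the 4 arrays without it give the same difference, so they are not separate checks.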
